A study of Homo sapiens with 6 samples.

Results

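The NRF2 pathway was followed through 10 genes, listed by symbol, out of 57885 genes that could be counted in HEK293 cells. They were NFE2L2, which encodes NRF2 itself, its inhibitor KEAP1, and the antioxidant target genes GCLC, GCLM, NQO1, HMOX1, TXNRD1, SRXN1, PRDX1 and OSGIN1. Every one of the 10 was detected and passed the filter on low counts, so all were tested. HEK293 is an established human embryonic kidney line. RNA was sequenced from 3 libraries of HEK293 WT cells and 3 of the HEK293 derivative labelled MUL1(-/-), both grown in DMEM with fetal calf serum and without any agent. MUL1 is an E3 ubiquitin ligase of the outer mitochondrial membrane, and the comparison asks how its loss changes gene expression. The MUL1(-/-) line had been made with CRISPR-Cas9. Which clone or clones gave the RNA is not given in the sources used here, so the genotype and the history of a clone cannot be told apart.

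NRF2 is a basic leucine zipper transcription factor that is made continuously and degraded quickly. KEAP1 holds it in the cytoplasm and presents it to a CUL3 ubiquitin ligase, and oxidants or electrophiles that modify cysteines of KEAP1 let newly made NRF2 escape to the nucleus. There it pairs with small MAF proteins on antioxidant response elements and raises the genes for glutathione synthesis, the thioredoxin and peroxiredoxin cycle, quinone reduction, haem breakdown and drug efflux. Control of NRF2 is thus largely at the level of the protein, which was not measured in these libraries.

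The letters of the antioxidant response element were searched in the RefSeq promoter windows of GRCh38.p14, each from 250 bases before to 50 bases after a start site. A window was held for 8 of the 10 genes, with 11 windows in all, and HMOX1 and PRDX1 had none in the table. On both strands, TGACNNNGC stood in 4 of the 11 windows, which belonged to 3 genes, and in 13.3% of all 35116 windows. The looser TGANNNNGC, which contains the first, stood in 7 of the 11 and in 41.8% of all windows. The 6 matches to TGACNNNGC are shown because these letters are the core of the element that NRF2 is known to bind. Capitals mark the 9 matched letters, and each sequence is written 5′ to 3′ on the strand named. Distances run to the start site from the matched letter farthest upstream in the direction of the gene. The match given at 8 bases therefore ends on the start base.
GCLM, chr1:93909446-93909474, plus strand, 34 bases before the start: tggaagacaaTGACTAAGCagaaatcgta
TXNRD1, chr12:104215670-104215698, plus strand, 99 bases before the start: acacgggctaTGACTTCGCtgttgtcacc
TXNRD1, chr12:104215761-104215789, minus strand, 8 bases before the start: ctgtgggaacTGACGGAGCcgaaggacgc
TXNRD1, chr12:104286920-104286948, minus strand, 102 bases before a second start: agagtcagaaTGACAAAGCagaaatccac
KEAP1, chr19:10502807-10502835, minus strand, 54 bases before the start: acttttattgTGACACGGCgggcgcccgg
KEAP1, chr19:10502784-10502812, plus strand, 31 bases before the start: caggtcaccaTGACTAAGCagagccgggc
The windows of NFE2L2, GCLC, NQO1, OSGIN1 and SRXN1 held no match to TGACNNNGC, which says only that these letters are not in that stretch. KEAP1 had another window as well (chr19:10503307-10503606), which held no match to either form. Both matches of KEAP1 belong to the start at chr19:10502771. A match is a string of letters, and no binding was measured.

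The tables held raw counts for 597973 exon bins, stretches between neighbouring exon edges, which were added up to give 1 count per gene. Totals were 132849479 to 149317215 in WT and 127466071 to 128125459 in MUL1(-/-) libraries, without overlap. Levels below are in CPM, the count scaled to library size after TMM normalization, and changes are log2 fold changes of MUL1(-/-) over WT. Both genotypes expressed the HEK293 markers PAX2, VIM, NEFM, NEFL, INA and LHX1, with a summed level of 838 to 1047 CPM in WT and 672 to 807 CPM in MUL1(-/-). Of these 6, PAX2 (log2 fold change -1.79), LHX1 (-0.54) and VIM (-0.33) fell and NEFM rose (1.07). Summed markers of fibroblasts, at 21.7 to 29.3 CPM in WT and 18.6 to 24.0 CPM in MUL1(-/-), overlapped, with 1 of 4 higher and 1 lower. Immune cell markers summed to 0.847 to 1.28 CPM in WT and 1.79 to 2.23 CPM in MUL1(-/-), with 2 of 4 higher and CD3E listed at 0 in every WT library. Endothelial markers reached 0.0910 to 0.237 CPM in WT and 0.445 to 0.679 CPM in MUL1(-/-), with 2 of 3 higher, and hepatocyte markers 0.122 to 0.349 and 0.343 to 0.411 CPM, with none called. The part of these markers in the results was not tested.

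MUL1 itself was counted at 14.6, 14.5 and 18.2 CPM in WT and at 17.8, 15.9 and 18.6 CPM in MUL1(-/-). The groups overlapped, and the difference did not pass (log2 fold change 0.14, 95% interval -0.08 to 0.36, adjusted p = 0.302 by edgeR's quasi-likelihood test with Benjamini-Hochberg adjustment). A small Cas9 edit need not lower a gene's RNA, so the count does not check the genotype, and MUL1(-/-) is used here as the label of the libraries. The 20 tested genes around MUL1 on chromosome 1 had a median log2 fold change of -0.52, and 15 of them fell.

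Of the 10 pathway genes, 5 were higher in MUL1(-/-), namely KEAP1, GCLC, HMOX1, NQO1 and SRXN1, and 1, OSGIN1, was lower. The other 4, NFE2L2, GCLM, TXNRD1 and PRDX1, did not pass. Among all 26060 genes tested, 37.8% passed, 19.3% higher and 18.5% lower. With library totals in place of TMM factors, 6214 genes were higher and 3970 lower, against 5041 and 4812, and of the 10 genes 6 were higher and 0 lower. None of the 10 also exceeded an absolute log2 fold change of 1, as 7.91% of all genes did. For 6 of the 10 the genotypes' ranges were separate, namely KEAP1, GCLC, HMOX1, NQO1, SRXN1 and PRDX1, where 49.0% of all genes tested had separate ranges. The median log2 fold change of the 10 was 0.35, and that of all genes tested was -0.00. Without regard to sign the medians were 0.56 and 0.29. These are pools of cultured cells, in which a change in RNA per cell and a change in the share of cells that express a gene cannot be told apart.

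**Figure D1:**
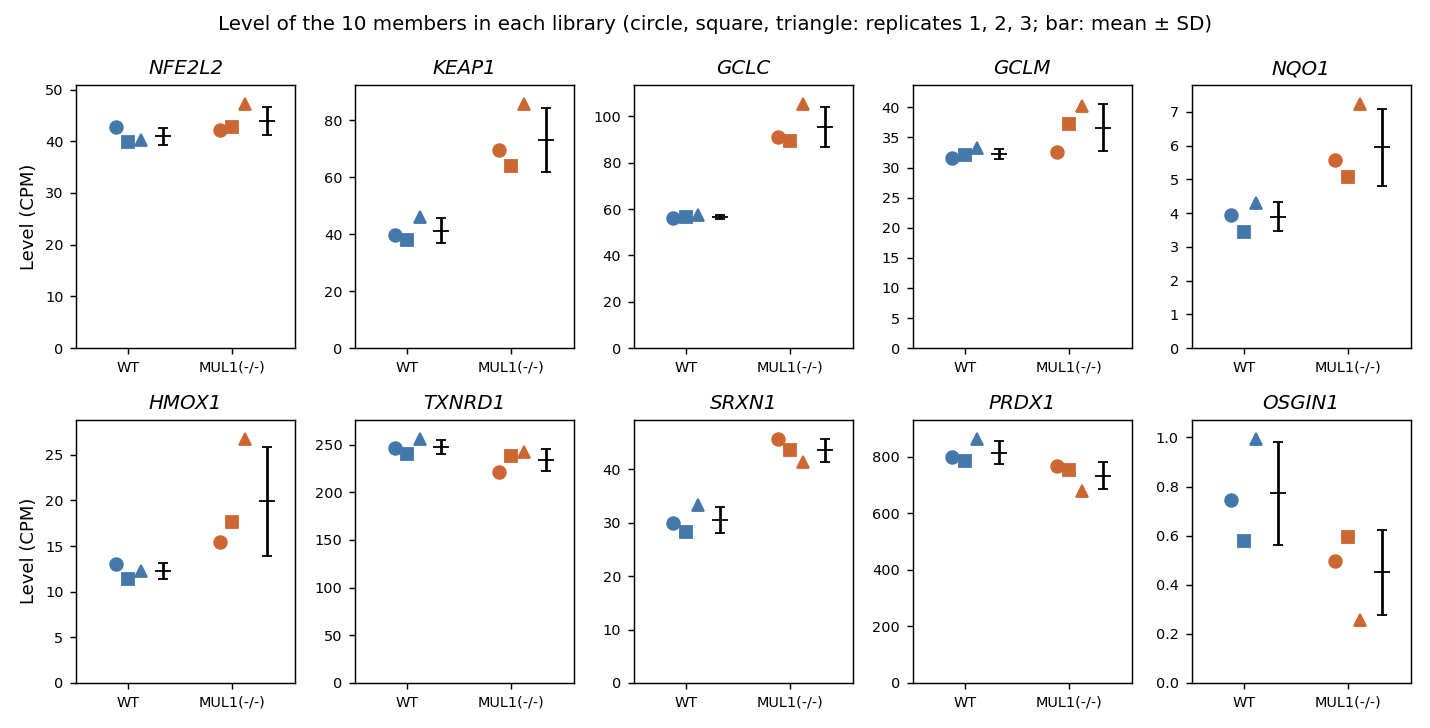
Level in CPM (linear axis from 0, a scale of its own for each gene) of the 10 genes in the 3 WT and 3 MUL1(-/-) libraries, with circles, squares and triangles for replicates 1, 2 and 3 and a bar for the mean ± SD. KEAP1, GCLC, HMOX1, NQO1 and SRXN1 lie higher in every MUL1(-/-) library, PRDX1 lies slightly lower in every one, and the triangle of MUL1(-/-) is the highest point for KEAP1, GCLC, GCLM, NQO1, HMOX1 and NFE2L2.

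NFE2L2 (ENSG00000116044, chr2:177227595-177392697, minus strand) encodes the transcription factor. Its level was 42.7, 39.9 and 40.2 CPM in WT and 42.1, 42.7 and 47.1 CPM in MUL1(-/-). The groups overlapped, and only the third MUL1(-/-) library stood above the highest WT value by more than the WT range. Means were 40.9 ± 1.55 and 44.0 ± 2.74 CPM (SD, n = 3 each), and the log2 fold change of 0.10 (SE 0.07, 95% interval -0.05 to 0.26) did not pass (adjusted p = 0.295, edgeR).

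KEAP1 (ENSG00000079999, chr19:10486120-10503741, minus strand), the adaptor that delivers NRF2 for degradation, changed most among the 10. It was counted at 39.8, 37.8 and 46.2 CPM in WT and at 69.5, 63.9 and 85.6 CPM in MUL1(-/-). Every MUL1(-/-) library exceeded every WT library. The mean rose 1.77-fold, from 41.3 ± 4.36 to 73.0 ± 11.2 CPM (SD, n = 3 each), with a log2 fold change of 0.82 (SE 0.10, 95% interval 0.60 to 1.05, adjusted p = 3.21e-05, edgeR). Its surroundings on chromosome 19 were also higher: of the 20 tested genes nearest to it, 16 rose and 1 fell, with a median log2 fold change of 0.55. KEAP1 lay 0.28 above that median, and the part of its neighbourhood in its change was not tested.

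GCLC and GCLM encode the catalytic and modifier subunits of glutamate-cysteine ligase, the first and rate-limiting enzyme of glutathione synthesis. GCLC (ENSG00000001084, chr6:53497341-53616970, minus strand) stood at 56.0, 56.4 and 57.5 CPM in WT and at 91.2, 89.4 and 105 CPM in MUL1(-/-). The WT values were nearly equal, and the lowest MUL1(-/-) value lay far above them. From 56.6 ± 0.752 to 95.2 ± 8.62 CPM (SD, n = 3 each) it rose 1.68-fold (log2 fold change 0.75, SE 0.07, 95% interval 0.59 to 0.91, adjusted p = 3.88e-06, edgeR). By p it ranked 650 of 26060, the foremost of the 10 genes. Its 20 neighbours had a median log2 fold change of 0.26, with 7 higher and 2 lower, and the median was 0.53 over the nearest 10 genes and 0.17 over 40. GCLM (ENSG00000023909, chr1:93885205-93909456, minus strand) was counted at 31.6, 32.1 and 33.2 CPM in WT and 32.6, 37.2 and 40.2 CPM in MUL1(-/-). The lowest MUL1(-/-) value fell among the WT values and the other two lay above them. Its log2 fold change of 0.18 (SE 0.08, 95% interval 0.004 to 0.36) did not pass after adjustment (adjusted p = 0.101, edgeR). It passed with library totals in place of TMM factors (0.25, adjusted p = 0.0263, edgeR) and without MUL1(-/-) replicate 1 (0.26, adjusted p = 0.0276, edgeR).

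NQO1 and HMOX1 are widely used as readouts of NRF2, the first encoding a quinone reductase and the second the haem oxygenase that opens haem to biliverdin. NQO1 (ENSG00000181019, chr16:69706996-69726951, minus strand) was low, at 3.93, 3.44 and 4.30 CPM in WT and 5.56, 5.06 and 7.22 CPM in MUL1(-/-). All 3 MUL1(-/-) values lay above the WT values. It rose 1.53-fold, from 3.89 ± 0.432 to 5.94 ± 1.13 CPM (SD, n = 3 each), with a log2 fold change of 0.61 (SE 0.14, 95% interval 0.31 to 0.91, adjusted p = 0.00336, edgeR). Its 20 neighbours had a median of 0.17, with 7 higher and 0 lower.

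HMOX1 (ENSG00000100292, chr22:35380361-35394214, plus strand) was at 13.1, 11.4 and 12.3 CPM in WT and at 15.5, 17.6 and 26.7 CPM in MUL1(-/-). The groups did not overlap, but the third MUL1(-/-) library stood far above the other two. The mean went from 12.3 ± 0.857 to 19.9 ± 5.98 CPM (SD, n = 3 each), which is 1.63-fold (log2 fold change 0.70, SE 0.16, 95% interval 0.37 to 1.04, adjusted p = 0.00266, edgeR). Without MUL1(-/-) replicate 3 the log2 fold change was 0.43, still past the threshold (adjusted p = 0.00221). Its 20 neighbours on chromosome 22 had a median of -0.06, with 3 higher and 3 lower.

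The remaining antioxidant enzymes form one cycle. TXNRD1 reduces thioredoxin with NADPH, PRDX1 is a peroxiredoxin that thioredoxin reduces after it has consumed peroxide, and SRXN1 restores peroxiredoxins that have been overoxidised. SRXN1 (ENSG00000271303, chr20:646615-653370, minus strand) was counted at 29.9, 28.4 and 33.3 CPM in WT and 45.6, 43.7 and 41.5 CPM in MUL1(-/-). All MUL1(-/-) values exceeded the WT values, here with replicate 3 the lowest of its group. It rose 1.43-fold, from 30.5 ± 2.52 to 43.6 ± 2.10 CPM (SD, n = 3 each), with a log2 fold change of 0.51 (SE 0.08, 95% interval 0.34 to 0.69, adjusted p = 0.000169, edgeR). Of its counts, 85.7% lay in bins that an exon of another gene also covers, which makes its level uncertain, and over the unshared bins alone the log2 fold change was 0.78 (adjusted p = 0.000167). Its 20 neighbours had a median of 0.03.

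TXNRD1 (ENSG00000198431, chr12:104215779-104350305, plus strand) was at 246, 240 and 256 CPM in WT and 221, 238 and 242 CPM in MUL1(-/-). The groups overlapped. Its log2 fold change was -0.08 (SE 0.06, 95% interval -0.22 to 0.05, adjusted p = 0.343, edgeR), so that a rise of the size seen for SRXN1 lay outside its interval. PRDX1 (ENSG00000117450, chr1:45511036-45523047, minus strand) was the most abundant, at 797, 784 and 862 CPM in WT and 766, 754 and 677 CPM in MUL1(-/-). The groups did not overlap, although the gap between them was smaller than the range within either. The log2 fold change of -0.15 (SE 0.07, 95% interval -0.30 to -0.01) did not pass after adjustment (adjusted p = 0.0848, edgeR). PRDX1 has processed pseudogenes, and how reads with several matches were counted is not given in the sources used here.

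OSGIN1 (ENSG00000140961, chr16:83948282-83966332, plus strand), an oxidative stress-induced growth inhibitor, went the other way at a low level. Its counts were 100, 85 and 131 in WT and 66, 78 and 33 in MUL1(-/-), which is 0.746, 0.576 and 0.993 CPM against 0.498, 0.594 and 0.257 CPM. The groups overlapped, since the second MUL1(-/-) library exceeded the second WT library. Means were 0.772 ± 0.210 and 0.450 ± 0.173 CPM (SD, n = 3 each), and the log2 fold change of -0.77 (SE 0.28, 95% interval -1.38 to -0.17) passed narrowly (adjusted p = 0.0439, edgeR). The call was lost without WT replicate 1 (-0.80, adjusted p = 0.0802), WT replicate 3 (-0.56, 0.166), MUL1(-/-) replicate 1 (-0.85, 0.0784) or MUL1(-/-) replicate 3 (-0.50, 0.125). OSGIN1 is annotated under an identifier joined with other genes, and counted with them the difference was 0.01 (adjusted p = 0.946). Its 20 neighbours had a median of 0.05.

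**Figure D2:**
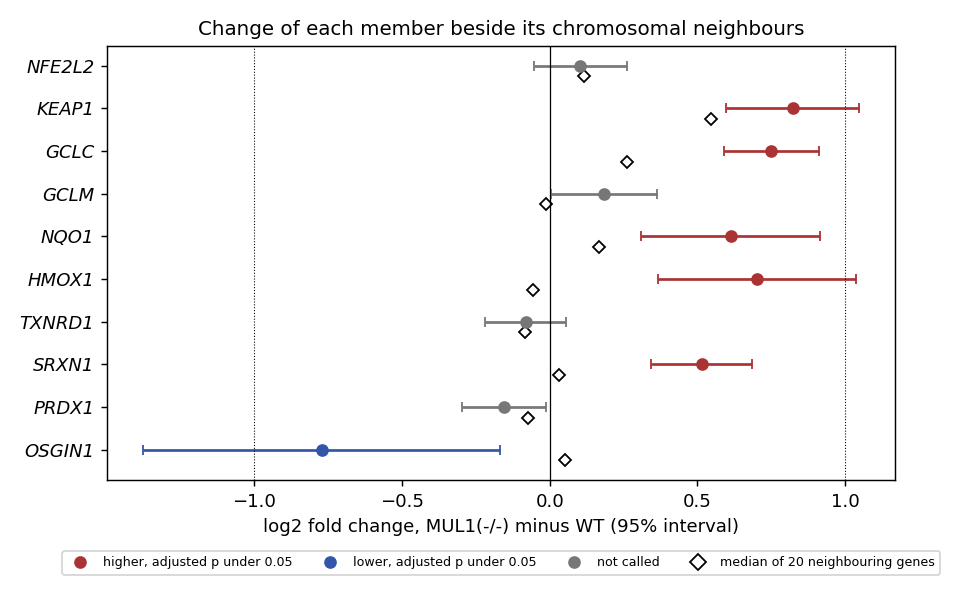
The log2 fold change of each of the 10 genes, MUL1(-/-) minus WT, with its 95% interval (points and bars, coloured by call) and the median log2 fold change of the 20 tested genes nearest on the chromosome (open diamonds). Intervals of KEAP1, GCLC, NQO1, HMOX1 and SRXN1 lie above 0, and that of OSGIN1 lies below 0 and is the widest. Those of GCLM and PRDX1 lie just above and just below 0, but neither gene was called. The neighbours of KEAP1 have a median of 0.55.

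Relative to length, the transcripts of these genes span a wide range, given here as CPM per kilobase of a gene's bins. A read can be counted in several bins, and the number of bins differs between genes (3 in SRXN1, 67 in TXNRD1). The length is that of all annotated bins, used or not, so the order between genes is approximate. In WT the order was PRDX1 (535 ± 27.3), TXNRD1 (36.9 ± 1.14), SRXN1 (11.3 ± 0.934), KEAP1 (10.97 ± 1.16), NFE2L2 (6.85 ± 0.260), GCLC (6.69 ± 0.0889), GCLM (5.95 ± 0.152), HMOX1 (5.10 ± 0.356), NQO1 (1.20 ± 0.133) and OSGIN1 (0.223 ± 0.0606; SD, n = 3 each). SRXN1 and KEAP1, and NFE2L2 and GCLC, differed by less than the sum of their SDs. In MUL1(-/-) PRDX1 (481 ± 31.6) and TXNRD1 (34.8 ± 1.66) again led, followed by KEAP1 (19.4 ± 2.99), SRXN1 (16.2 ± 0.777), GCLC (11.3 ± 1.02), HMOX1 (8.29 ± 2.48), NFE2L2 (7.36 ± 0.457), GCLM (6.76 ± 0.708), NQO1 (1.83 ± 0.347) and OSGIN1 (0.130 ± 0.0501). There, neighbours in the order from GCLC down to GCLM were not separated beyond their SDs, nor were KEAP1 and SRXN1. On this approximate measure GCLC stood beside NFE2L2 per length in WT and above it in MUL1(-/-).

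The third MUL1(-/-) library held the highest value of its group for 7 of the 10 genes, KEAP1, GCLC, GCLM, NQO1, HMOX1, NFE2L2 and TXNRD1, and the lowest for SRXN1, PRDX1 and OSGIN1. Over 16660 genes its values also lay farthest from its group, with an SD of the log2 deviations of 0.157 against 0.113 and 0.111 in the other MUL1(-/-) libraries and 0.0930 to 0.136 in WT. KEAP1, GCLC, HMOX1, NQO1 and SRXN1 passed without this library too.

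Because the counts were deposited per exon bin, the share of each bin within its gene could be compared as well. Of 186 bins of the 10 genes that were tested, 3 changed their share, where 1.57% of all 335972 bins tested did (edgeR's test of differential usage, Benjamini-Hochberg adjustment). Such bins were thus about as frequent in these genes as in all genes. No bin of OSGIN1 was among those tested. In the genes that rose, the level was higher in MUL1(-/-) in 19 of 19 bins of KEAP1, 36 of 36 of GCLC, 12 of 12 of NQO1 and 8 of 9 of HMOX1. SRXN1 had only 3 bins, 2 of them higher and 1 at a log2 fold change of -0.14. In KEAP1 the log2 fold change of single bins ran only from 0.71 to 0.95. All 11 bins of GCLM were slightly higher, from 0.02 to 0.47, while 38 of 49 bins of TXNRD1 and 14 of 16 of PRDX1 were lower. A read that spans an exon edge can be counted in neighbouring bins, so these bins are not independent.

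The clearest change of share was at the 5′ end of GCLC, in chr6:53545034-53545088, which the GENCODE 29 annotation places in the 5′ untranslated part of exon 1 of 3 GCLC transcripts. Its counts were 29, 32 and 28 in WT and 114, 122 and 193 in MUL1(-/-). The groups were far apart, and the bin's level rose 5.10-fold where the whole gene rose 1.68-fold. It made up 0.380 ± 0.00931% of the gene's counts in WT and 1.14 ± 0.259% in MUL1(-/-) (SD, n = 3 each), with a log2 change of share of 1.59 (adjusted p = 1.13e-12, edgeR). The bins on either side also rose more than the gene. That on the 5′ side, with 5, 5 and 2 counts in WT and 16, 10 and 22 in MUL1(-/-), rose 4.27-fold. The bin on the 3′ side rose 2.16-fold. Their changes of share did not pass (adjusted p = 0.182 and 0.0734, edgeR). The called bin runs partly into the RefSeq promoter window of GCLC, which held neither form of the response element.

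PRDX1 showed the reverse at its first bin, chr1:45522778-45523047, the untranslated exon 1 of a coding PRDX1 transcript. It was counted 183, 202 and 215 times in WT and 68, 69 and 66 times in MUL1(-/-), so that every MUL1(-/-) value lay far below the WT values. Its share of the gene was small, falling from 0.178 ± 0.00951% to 0.0709 ± 0.00465% (log2 change of share -1.34, adjusted p = 2.04e-10, edgeR). In NFE2L2 the bin chr2:177227595-177227953, which is exon 2 of a coding NFE2L2 transcript and mostly untranslated, had 49, 63 and 38 counts in WT and 22, 21 and 15 in MUL1(-/-). It too fell without overlap, from 0.881 ± 0.178% to 0.339 ± 0.0790% of the gene (log2 change of share -1.40, adjusted p = 3.06e-05, edgeR), although the level of NFE2L2 as a whole did not pass. A pair of other NFE2L2 bins near its 5′ end were also lower, with log2 fold changes of -0.76 and -0.89, and their changes of share did not pass (adjusted p = 0.12 and 0.0539, edgeR). Each of these 3 bins held at most 1.43% of its gene's counts in any library, and the bulk of the transcript is measured by the others.

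**Figure D3:**
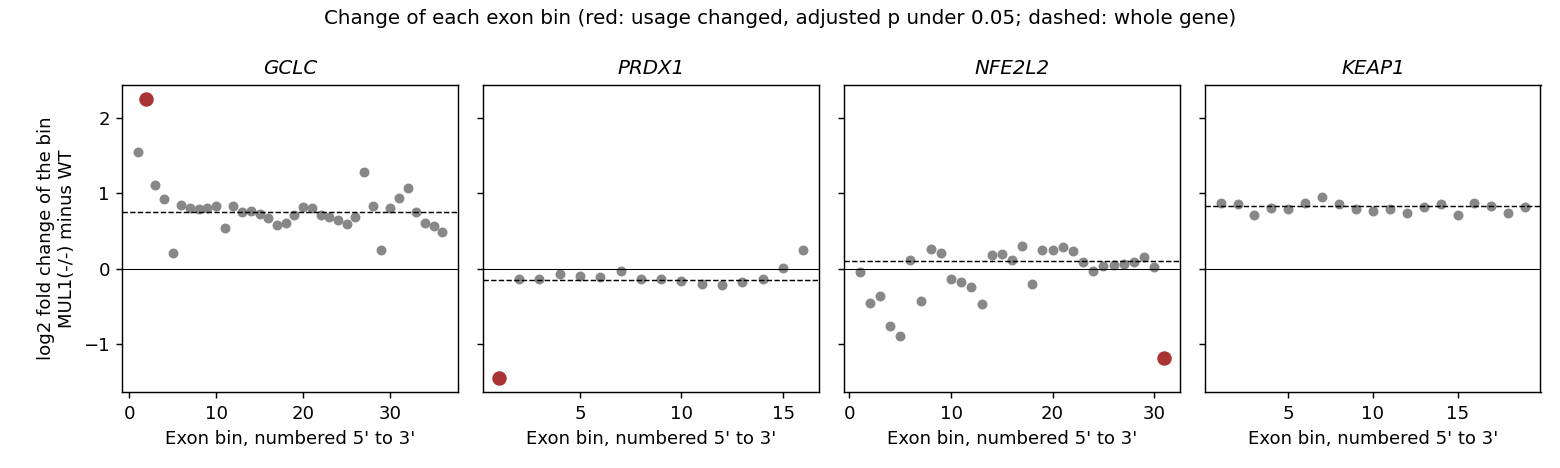
The log2 fold change of single exon bins, MUL1(-/-) minus WT, along GCLC, PRDX1, NFE2L2 and KEAP1, with bins numbered 5′ to 3′, a dashed line at the change of the whole gene and red for a changed share (adjusted p under 0.05). KEAP1's 19 bins run level between 0.71 and 0.95, and red marks the second bin of GCLC (2.25), the first of PRDX1 (-1.46) and the last of NFE2L2 (-1.18), whose gene also has uncoloured bins down to -0.89.

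A further 68 genes of the pathway were listed by role, of which 67 could be tested, SOD3 being too low. Of these, 15 were higher in MUL1(-/-), 17 lower and 35 not called, beside 19.3% and 18.5% of all genes, and the median log2 fold change was -0.04. The balance depends on the scaling, since with library totals 22 were higher and 13 lower, and BACH1, BACH2, SESN3 and TKT were then no longer called. Drug-metabolising and efflux genes had the most that rose, 6 of 14, with 1 lower and a list median of 0.23 (8 higher and 1 lower with library totals). The thioredoxin, peroxiredoxin and sestrin list had the most that fell, 6 of 13, with 1 higher and a median of -0.16 (5 lower and 2 higher with library totals). No list was tested against the others.

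Among the transcription factors and controls of NRF2, 3 of 14 rose and 5 fell (list median -0.11). PGAM5, a mitochondrial phosphatase that binds KEAP1, went from 83.5 ± 6.62 to 138 ± 5.87 CPM (log2 fold change 0.72, adjusted p = 4.36e-06, edgeR). SQSTM1, the autophagy receptor that can sequester KEAP1, rose by 0.31, with 27.1% of its counts in bins shared with another gene. CUL3, the scaffold of the ligase that KEAP1 serves, rose by 0.28. RBX1, the RING subunit of that same ligase, fell (-0.29), as did BTRC (-0.40), the adaptor of the other ligase that acts on NRF2. MAFF, a small MAF partner, fell by 0.51, and BACH1 (-0.20) and BACH2 (-0.32), which repress antioxidant response elements, were also lower, though neither passed with library totals.

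In the list of glutathione synthesis and cystine uptake, 3 of 10 rose and 2 fell (median -0.03). CHAC2, which degrades glutathione rather than making it, had the largest rise, from 7.71 ± 0.826 to 11.3 ± 0.297 CPM (log2 fold change 0.55, adjusted p = 0.00057, edgeR). SLC3A2, the heavy chain of the cystine transporter and of other amino acid transporters, rose by 0.37, and GSR, glutathione reductase, by 0.22. GSS, which completes glutathione after the ligase, fell (-0.41), as did GGT7 (-0.40), of the gamma-glutamyltransferase family. These genes lie close together on chromosome 20 (GGT7 at chr20:34844720-34872860, GSS at chr20:34928430-34955817). Their neighbours were not examined, and the part of this stretch in their changes was not tested.

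In the thioredoxin list the single gene that rose was PRDX2, a cytosolic peroxiredoxin closely related to PRDX1, from 251 ± 4.17 to 383 ± 9.23 CPM (log2 fold change 0.61, adjusted p = 2.97e-06, edgeR), with 33.0% of its counts in bins shared with another gene. PRDX2 lies on chromosome 19 (chr19:12796820-12801859), as does KEAP1, whose 20 neighbouring genes had a median log2 fold change of 0.55. The neighbours of PRDX2 itself were not examined, and their part in its change was not tested. TXNIP, which inhibits thioredoxin, fell from 11.9 ± 0.583 to 7.07 ± 0.807 CPM (-0.75, adjusted p = 6.64e-05, edgeR). SESN2, a stress-induced sestrin, fell by 0.48 and PRDX5, a mitochondrial and peroxisomal peroxiredoxin, by 0.25. SESN2 lies on chromosome 1 (chr1:28259527-28282491), as MUL1 does, and the neighbours of SESN2 were not examined.

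Of the 6 genes of NADPH supply none rose and 2 fell (median -0.12). PGD, the second NADPH-producing enzyme of the pentose phosphate pathway, was at 303, 280 and 273 CPM in WT and 153, 152 and 155 CPM in MUL1(-/-). The groups were wide apart, and at -0.90 (adjusted p = 1.76e-07, edgeR) it had the smallest p of the 67 listed genes tested. PGD lies on chromosome 1 (chr1:10398592-10420144), as does MUL1, whose 20 neighbouring genes had a median log2 fold change of -0.52. The neighbours of PGD itself were not examined, and their part in its change was not tested. TKT, transketolase of the pentose phosphate pathway, fell by 0.21, a call that library totals did not keep. Of 7 genes of haem and iron handling 1 rose, the ferritin heavy chain FTH1 (0.21), and none fell (median -0.04). Of the counts of FTH1, 55.5% lay in bins shared with another gene, which makes its level uncertain. SOD1, the cytosolic superoxide dismutase, fell by 0.28 and CAT, catalase, rose by 0.22, with SOD2 not called.

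In the list of detoxification and efflux, 2 genes exceeded an absolute log2 fold change of 1, both at very low levels. ALDH3A1, an aldehyde dehydrogenase, went from 0.168 ± 0.0400 to 0.483 ± 0.125 CPM (1.52, adjusted p = 0.000801, edgeR), and ABCC3, an efflux pump, from 0.0722 ± 0.0106 to 0.173 ± 0.0360 CPM (1.25, adjusted p = 0.0135, edgeR). ABCC2, a pump for glutathione and glucuronide conjugates, rose by 0.68, from 2.15 ± 0.00504 to 3.43 ± 0.762 CPM. CBR3, a carbonyl reductase, rose by 0.52, with 74.4% of its counts in bins shared with another gene. PTGR1, a prostaglandin reductase, fell by 0.45.

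**Figure D4:**
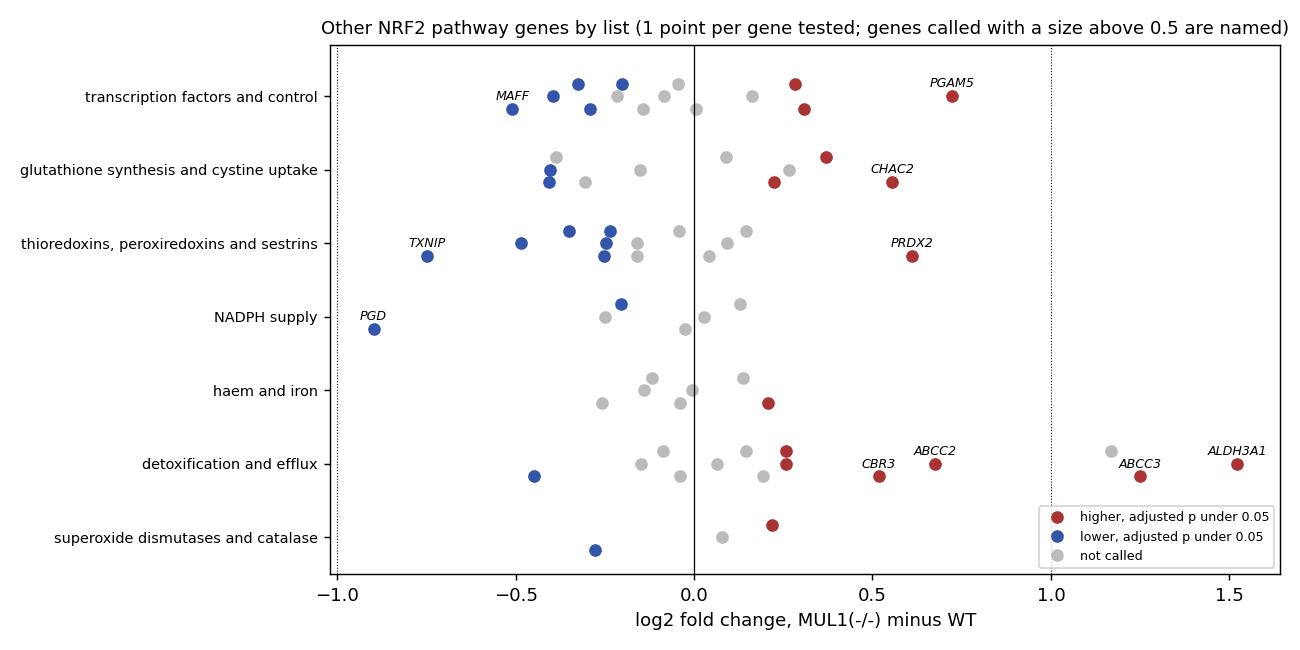
The log2 fold change, MUL1(-/-) minus WT, of the 67 tested genes of the 7 role lists, 1 point per gene, coloured by call, with dotted lines at -1 and 1. Points spread to both sides of 0 in most lists, with 15 higher and 17 lower in all, and only ALDH3A1 (1.52) and ABCC3 (1.25) pass the line at 1 as called genes.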

How the data were processed

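Total RNA of 6 HEK293 samples was sequenced from SMARTER mRNA-Seq libraries. The authors deposited 1 table per library with raw, unnormalized counts of exon bins. The submitters' processing notes name Trimmomatic 0.36, STAR 2.5.2b and GRCh38, and the counting program and its use of strand are not given in the sources used here. Bins were summed per gene. Of 54848 identifiers, 2031 joined overlapping genes (20.98% of counts, 4 of the 10 genes), and their bins were given to each gene whose same-strand GENCODE 29 exon they overlap, so that 57885 genes resulted and 0.0146% of counts stayed unassigned. Library sizes were the deposited totals scaled by TMM (factors of 0.954 to 0.993 for WT libraries and 1.01 to 1.04 for MUL1(-/-) libraries).

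Genes passing filterByExpr were tested with edgeR 4.0.16 in R 4.3.3 (glmQLFTest, Benjamini-Hochberg adjustment over all genes, threshold 0.05) and bins with diffSpliceDGE. The study's own methods used DESeq2, here an alternative (1.42.0), with limma-voom 3.58.1. On simulated data edgeR recovered 97 of 100 genes changed by a log2 fold change of 1, with 8 false calls among 25583. Only these and 100 genes changed by 2 were altered there. The simulation therefore does not describe smaller changes, or changes as widespread as those in the libraries. Other tables and plots were made with Python 3.11.15. Intervals cover 95%.

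Groups came from the sample titles. Libraries of the same genotype were compared for duplicates, and their chi-square over its degrees of freedom was 3.08 to 9.77, so all were kept. The study's methods give 3 samples per group and speak of independent experiments for its data in general, but neither they nor the labels say that these libraries came from separate cultures, so p-values measure only the spread between these samples, which may be technical. The genes and lists were chosen with earlier results of these data known. Named from each list were the 3 called genes of smallest p per direction and those past both thresholds, and BACH1 and BACH2 were named after their values were seen. Sequences are from RefSeq.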

Additional observations from a re-analysis of the deposited data

How the results depend on the processing

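Of 16 alternatives for each gene, 15 planned and 1 (joined identifiers kept whole) added after seeing the data, none changed the call of KEAP1, GCLC, HMOX1, NQO1 or SRXN1, nor of MUL1, NFE2L2, TXNRD1 and PRDX1. The 5 genes that rose ranged over 0.69 to 0.91 for KEAP1, 0.57 to 0.81 for GCLC, 0.43 to 0.86 for HMOX1, 0.45 to 0.72 for NQO1 and 0.45 to 0.78 for SRXN1. GCLM passed with library totals (0.25) and ranged from 0.11 to 0.26 with each library left out. OSGIN1 was lost with library totals (-0.71), the replicate block (-0.78) and the most counted bin (-0.66), turned to 0.011 with joined identifiers kept whole, was removed by a minimum of 1 CPM, and ranged from -1.02 to -0.50 with each library left out. The number of the 10 genes that fell was accordingly 0 under those 5 settings, and 0 to 1 with a library left out. Adding the fold threshold left 1086 higher and 976 lower genes in all, 0 and 0 of the 10, and 2 and 0 of the 68 listed genes. Of the listed genes, 8 rose by the most counted bin, and 11 (without WT replicate 1) to 21 fell with a library left out. Called bins numbered 3 to 5, with 5 without MUL1(-/-) replicate 2. With 5 genes on each side, the neighbours' median was -0.46 for MUL1, -0.00059 for NFE2L2, 0.063 for NQO1, -0.16 for HMOX1, 0.53 for GCLC, 0.077 for GCLM and -0.024 for TXNRD1, and with 20 it was 0.17 for GCLC, -0.016 for PRDX1 and -0.037 for OSGIN1. The cause of these shifts was not tested.

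Deviations of same-numbered libraries correlated at r = -0.107, 0.169 and 0.100 (mean of different numbers -0.0237, across genes), and 4 of 6 libraries correlated best with their own number. As 1 pair was negative and no source ties the numbers to a shared batch, the samples were not treated as paired. The replicate block gave 4955 higher and 4738 lower genes and changed no other call among the 10 genes.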

Other observations

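Ratios within a library compare partners of the same enzyme or cycle without reference to library size. Of 3 such ratios, chosen after the values had been seen, the log2 ratio of GCLC to GCLM, catalytic to modifier subunit, was 0.83, 0.81 and 0.79 in WT and 1.49, 1.27 and 1.39 in MUL1(-/-). That of KEAP1 to NFE2L2, inhibitor to factor, was -0.10, -0.08 and 0.20 in WT and 0.72, 0.58 and 0.86 in MUL1(-/-). That of SRXN1 to PRDX1, repair enzyme to its substrate, was -4.74, -4.79 and -4.69 in WT and -4.07, -4.11 and -4.03 in MUL1(-/-). In each case the genotypes did not overlap, with differences of 0.57, 0.71 and 0.67, and an exact two-sided permutation test gave p = 0.1 for each (adjusted p = 0.1 over the 3), the smallest p that 3 against 3 libraries allow, so no ratio could pass. MUL1(-/-) replicate 3 was the middle value of its group in the first ratio and the highest in the other two.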
